A study of Mus musculus with 36 samples.

Results

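The 40 genes described here act in autophagy or the lysosome and were followed in mouse liver across 2 genotypes and 3 conditions. The members were the 40 genes of a listed set, found by the gene name of their array probes, and each was read by its brightest probe. All 40 were found among the 37325 genes on the array and all 40 passed the filter on dim probes, which 24251 genes passed. The series profiled 36 livers of male C57Bl/6J mice on Agilent arrays read in 1 colour, with 6 arrays per group. AAKO mice lacked adipose triglyceride lipase (ATGL, the product of Pnpla2) in white adipose tissue, and CTRL mice were their controls. Mice of each genotype were fed freely, fasted for 24 h, or fed and dosed by gavage with CL316243, which activates beta 3 adrenergic receptors, at 3 mg/kg in 0.5% carboxymethyl cellulose, at Zeitgeber time 10. All mice were killed at Zeitgeber time 16. The promoter that drove the deletion, the animals' ages and any litter were not given in the sources used here, and the labels number the replicates without stating more, so p-values measure the spread between these samples. The fed groups without CL316243 belong to experiment 2 and the other groups to experiment 1, so every difference from fed mice also compares experiments and these cannot be told apart. A gavage is named for the CL316243 groups only.

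Autophagy encloses cytoplasm in a double membrane, the autophagosome, which fuses with the lysosome, where acid hydrolases digest the contents. In liver it supplies amino acids and lipids during fasting and also removes damaged mitochondria. The kinase mTORC1 restrains the process in fed cells, by acting on the ULK1 kinase complex and on the transcription factors TFEB and TFE3. RNA levels of these genes do not measure autophagic flux.

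Signals are log2 values from which each array's 75th percentile was subtracted, and a group is written as its median with the lowest and highest of 6 samples in parentheses. Differences are log2 differences of group means with the standard error of the fit, and a gene is called at an adjusted p under 0.05 (limma, Benjamini-Hochberg over 24251 genes). Between 58.5% and 65.7% of probes per array were well above background. Hepatocyte markers such as Alb were bright in every sample, with a mean log2 signal over 10 markers between 8.78 and 9.23. After CL316243 this mean did not overlap between genotypes, at 8.78 to 9.01 in CTRL and 9.07 to 9.23 in AAKO. Pnpla2 in liver does not check a deletion in adipose tissue, and its signal was higher in fasted AAKO (7.32, 7.12 to 7.49) than in fasted CTRL samples (5.95, 5.49 to 6.86). Replicate 2 of the fasted CTRL group stood apart from the other fasted CTRL samples and lay towards fasted AAKO. Of the 15 members called higher in fasted AAKO livers it held the highest fasted CTRL value for 14, and of the 15 called lower it held the lowest for 9. Its mean over 10 neutrophil markers, 1.65, was above the other 5 fasted CTRL samples, which lay between -2.25 and -0.04. Leaving it out kept 29 of the 30 calls of the genotype comparison in fasted mice (all but Atg10).

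In fed mice no member was called between the genotypes. In fasted mice 30 of 40 members were (75%, against 49.2% of all genes tested), 15 higher and 15 lower in AAKO (22.0% and 27.2% of all genes). Of these, 15 differed by at least 1.5-fold, as did 25.4% of all genes. After CL316243, 12 of 40 members were called (against 24.5% of all genes), 9 higher and 3 lower (12.9% and 11.6% of all genes). The authors' value table gave 8 higher and 5 lower there. All 40 members were well above background on all 36 arrays. The genes tested needed this on only 5 of 6 arrays of any group, so the shares of all genes were not matched for signal. The members were also chosen with earlier results of these data known. The largest differences in fasted mice were higher Uvrag, Atg4d, Ctsl, Atg2a and Wipi1 and lower Atg4c in AAKO livers, each above 2-fold. With the mean of all detected probes of a gene, those of Uvrag (0.65) and Atg4c (-0.61) were below 2-fold. The median difference over the 40 members in fasted mice was -0.03, and over all genes tested it was also -0.03. Bulk liver RNA cannot tell fewer cells of a type from less RNA per cell.

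**Figure D1:**
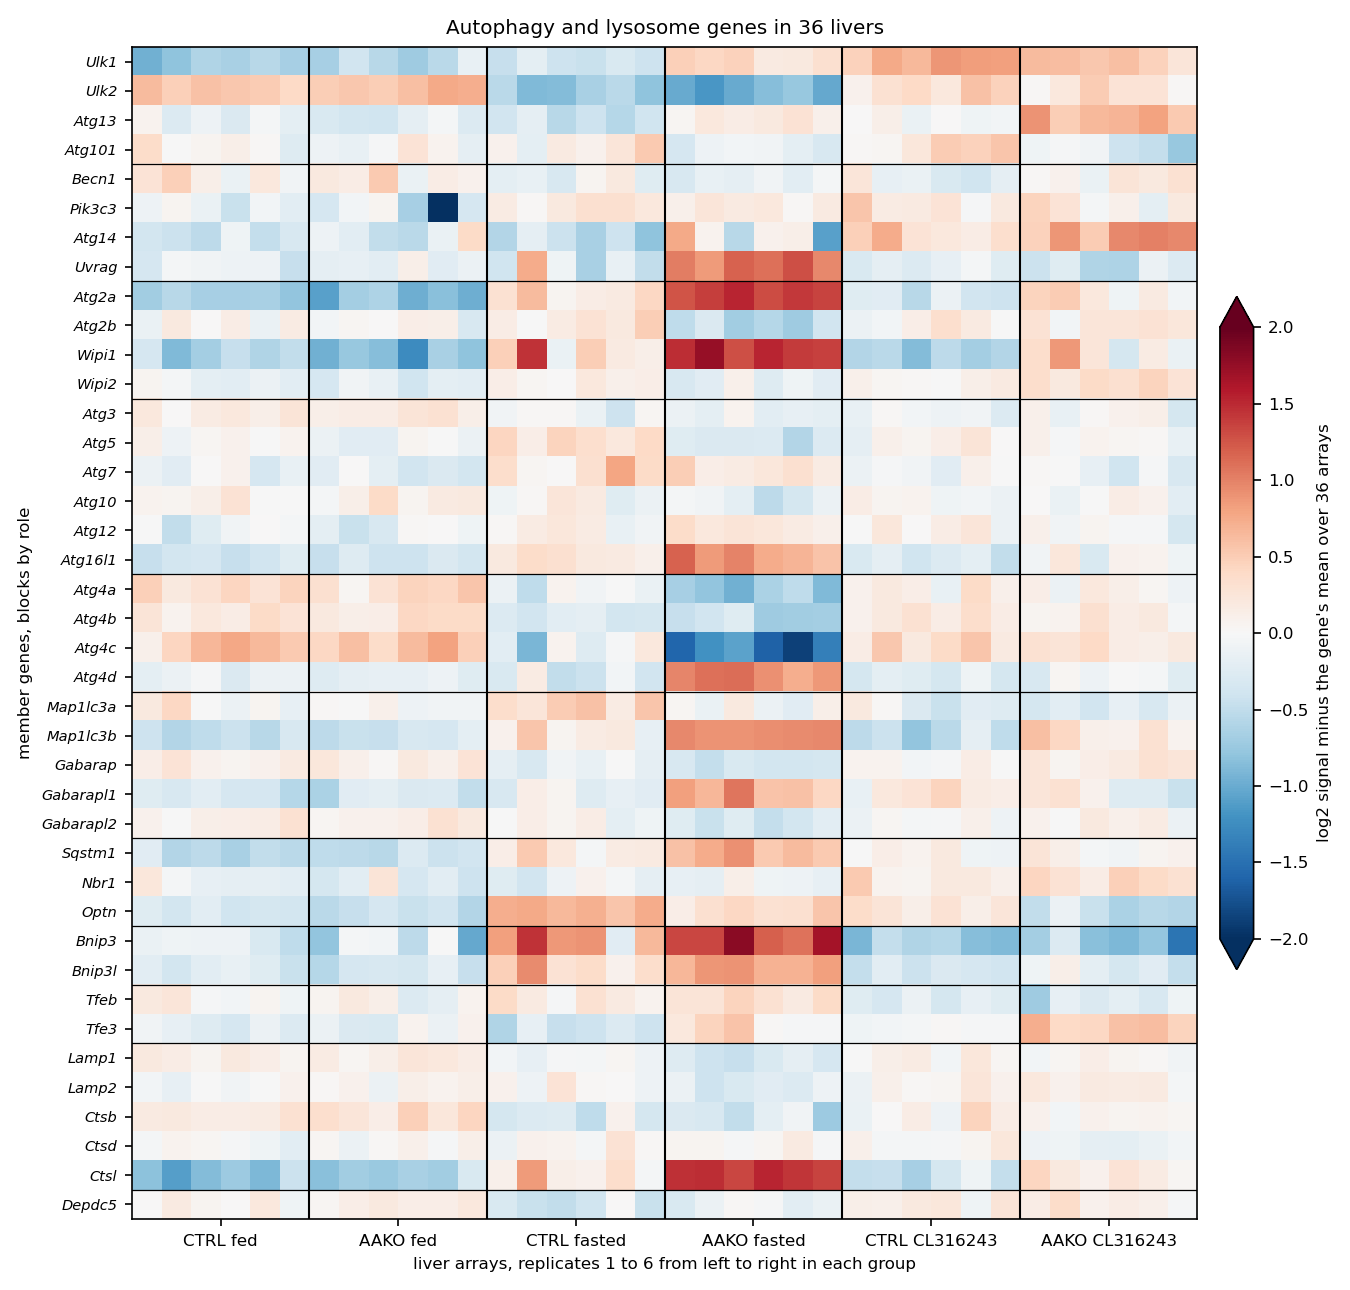
Each of the 40 members (rows, in blocks by role) in each of the 36 liver arrays (columns, in 6 groups), as log2 signal minus the gene's mean over all arrays, with the colour scale ending at -2 and 2. Fasted AAKO livers stand out as red for Uvrag, Atg2a, Wipi1, Atg4d, Map1lc3b and Ctsl and as blue for Atg4c, Ulk2 is blue in both fasted groups, and replicate 2 is the reddest of the fasted CTRL samples for Uvrag and Wipi1.

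The count of 0 in fed mice stood against 0.0783% of all genes called, with limma, and 2 members had an unadjusted p under 0.05. These were Ulk1, at 0.20 ± 0.0909 (SE), and Pik3c3, at -0.42 ± 0.197 (SE), and neither was called. No member had groups of fed mice that did not overlap (0.689% of all genes did). In fasted mice the 6 AAKO values lay all above the 6 CTRL values for 10 members and all below for 6, together 16 of 40, where 21.3% of all genes were so separated. After CL316243 the genotypes were separated for 7 members upwards and 3 downwards, where 11.3% of all genes were. The genotype comparisons in fasted and in CL316243 mice share no sample. However, 1 fit gave both, with the same estimate of each gene's spread and the same wash batch term. Of all 40 members 75% were called when fasted. Of the 12 members called after CL316243, 11 were also called in fasted mice (91.7%, or 36.7% of the fasted calls), 9 in the same direction and 2 (Wipi2 and Gabarap) in the opposite one. The Gabarap call after CL316243 (0.15) was lost in 19 of 25 alternatives, 9 of which left out 1 sample (CTRL CL316243 replicates 1, 2, 3, 4 and 6 and AAKO CL316243 replicates 1, 4, 5 and 6, with 0.13 to 0.16). The Wipi2 call in fasted mice was lost with the mean of its probes (-0.09). Over all genes tested the corresponding shares were 64.9% and 32.4%. Of the 3861 genes called in both comparisons, 3109 went in the same direction and 752 in the opposite one.

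Fasting against feeding was called for 24 members in CTRL mice (43.8% of all genes were called), 14 higher and 10 lower against 19.8% and 24.0% of all genes. With the authors' value table the split was 19 higher and 7 lower. In AAKO mice it was called for 34 (63.6% of all genes), 19 higher and 15 lower against 27.5% and 36.1%. CL316243 against feeding was called for 12 members in CTRL (23.1% of all genes), 9 higher and 3 lower against 10.5% and 12.7%. In AAKO it was called for 19 (31.4% of all genes), 13 higher and 6 lower against 15.5% and 15.9%. Fasting against CL316243, which lies within experiment 1, was called for 25 members in CTRL (37.1% of all genes), 12 higher and 13 lower against 17.8% and 19.3% (14 and 10 with the authors' value table). In AAKO it was called for 35 (60.0% of all genes), 17 higher and 18 lower against 26.0% and 34.0%. The 6 samples of a group lay wholly above or below those of the other for 10 and 6 members with fasting in CTRL (22.8% of all genes either way) and for 16 and 12 in AAKO (42.7%). The same counts were 6 and 1 with CL316243 in CTRL (12.3%) and 10 and 3 in AAKO (15.0%). Fasting against CL316243 separated 9 members upwards and 6 downwards in CTRL (17.9%), and 16 and 14 in AAKO (37.3%). These comparisons share groups with each other and with the genotype comparisons.

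The change from fed to fasted differed between genotypes for 23 members (33.6% of all genes), with a higher value in AAKO for 14 and a lower one for 9 (15.1% and 18.6% of all genes). The change from fed to CL316243 differed for 9 (10.8% of all genes), higher in AAKO for 6 and lower for 3 (6.20% and 4.64%). The genotype difference itself differed between fasted and CL316243 mice for 19 members (31.8% of all genes), higher when fasted for 10 and lower for 9 (13.4% and 18.5%).

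Between fasted genotypes 22.0% of all genes tested were called higher in AAKO and 27.2% lower. Among markers of other cell types, 7 of 10 neutrophil markers were called higher in fasted AAKO than in fasted CTRL livers and none lower. The mean over the list ran from -0.15 to 2.13 in fasted AAKO, from -2.25 to 1.65 in fasted CTRL and from -2.51 to 1.13 in the other groups. Ngp, Cxcr2 and Retnlg were well above background on 11, 27 and 29 of 36 arrays. Of 12 markers of Kupffer cells and other macrophages, 2 (C1qa and C1qb) were called higher in fasted AAKO, and the list mean had a median of 2.51 there (0.62 to 2.69) and of 1.45 in fasted CTRL (0.97 to 2.79). After CL316243, 8 of the 12 in CTRL and 9 in AAKO were called lower than in fed mice, where 12.7% and 15.9% of all genes were. Of 8 markers of sinusoidal endothelium 3 were called higher in fasted AAKO. After CL316243 7 of them in CTRL and 4 in AAKO were called lower than in fed mice, and the list mean did not overlap (0.68 to 1.62 against 1.69 to 2.19 in CTRL, and 1.25 to 1.87 against 2.04 to 2.17 in AAKO). Of 6 adipocyte markers 3 were called lower and 1 higher in fasted AAKO, and the list mean lay between -1.92 and -1.35 there and between -1.33 and -0.71 in fasted CTRL, without overlap. In fed mice the list mean lay between -2.21 and -1.84 in CTRL, below all fasted CTRL samples. It lay between -2.53 and -1.76 in AAKO fed samples, which overlapped fasted AAKO. Which cells gave the signal of this list was not tested. Of the other lists, stellate cells had 2 of 8 markers higher, cholangiocytes 2 of 6 lower and lymphocytes 1 of 7 lower in fasted AAKO. These counts, and that of the Kupffer cell list in fasted AAKO, were near or below the shares of all genes. The part of these cells in the results on the members was not tested.

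**Figure D2:**
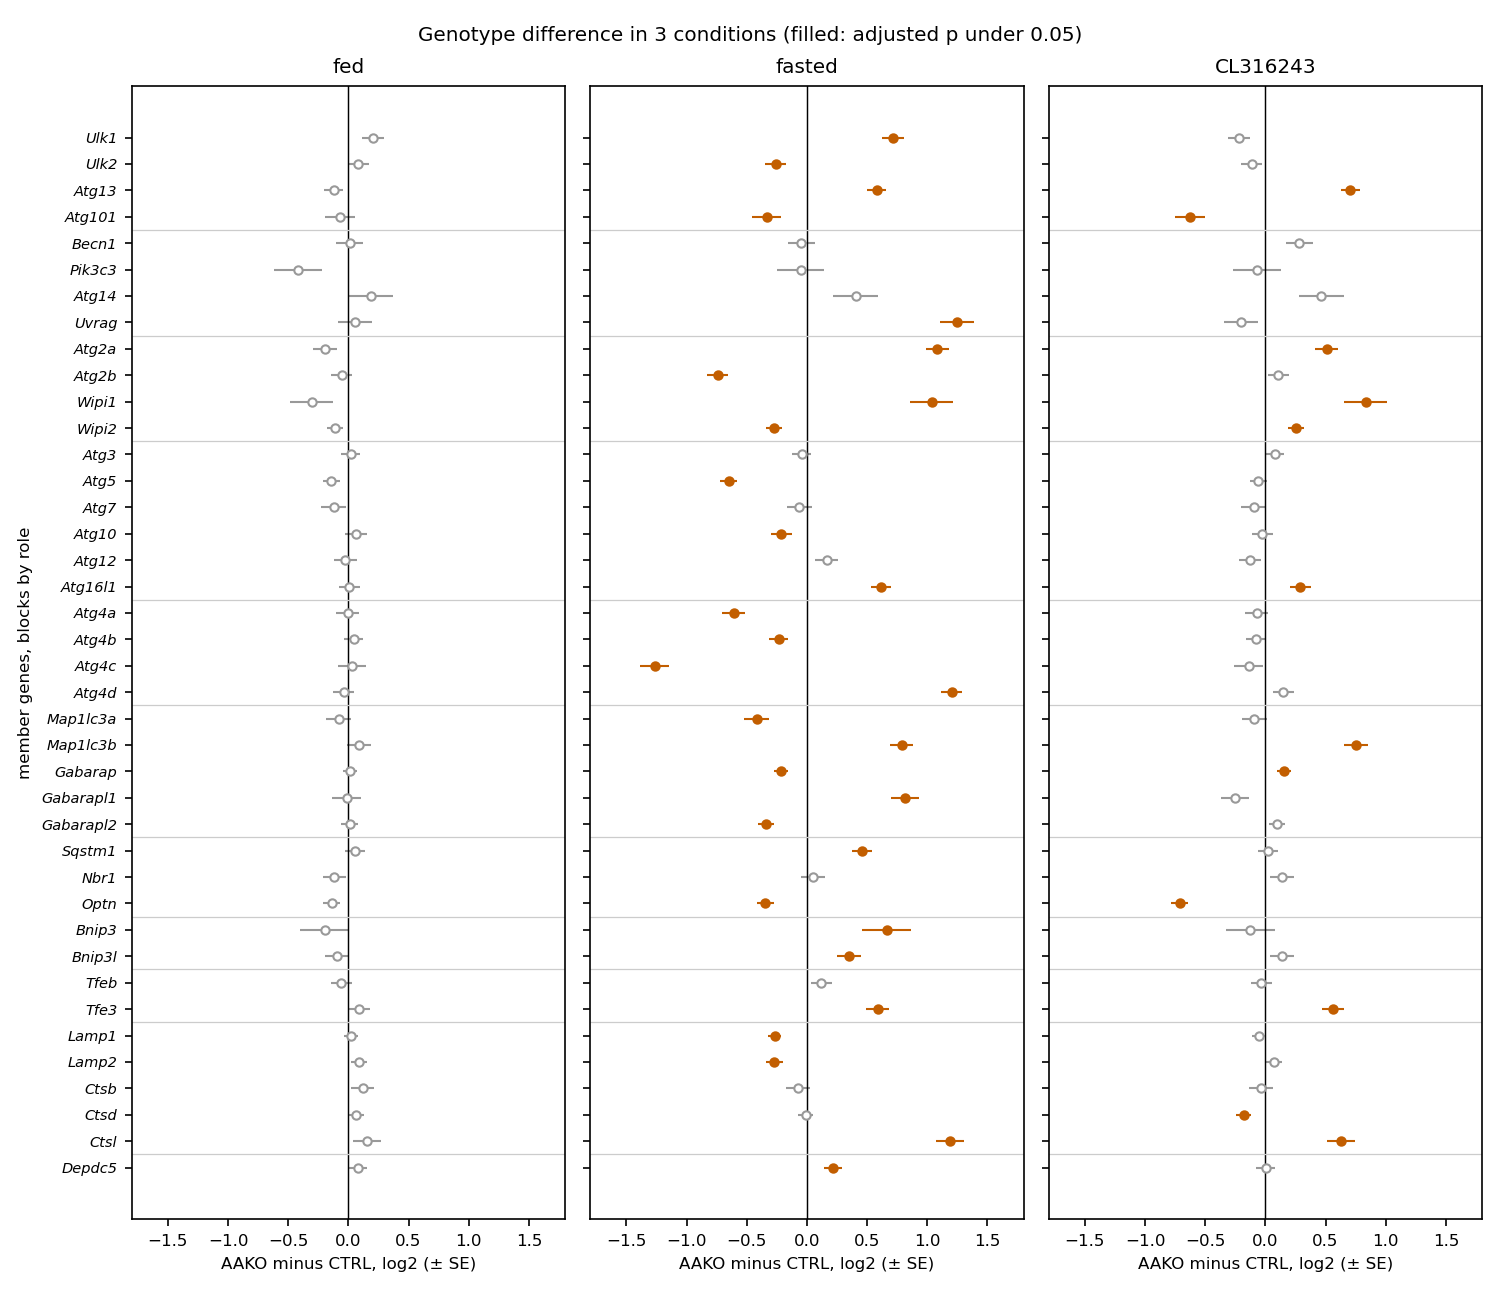
AAKO minus CTRL difference in log2 signal (x axis, with the standard error) for each member (y axis, blocks by role) in fed, fasted and CL316243 mice, filled where called. All 40 points are open in fed mice, 30 are filled in fasted mice with Uvrag at 1.25 and Atg4c at -1.27, and 12 are filled after CL316243.

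TFEB and TFE3 are related transcription factors that mTORC1 holds in the cytoplasm and that, once released, bind the CLEAR motif of lysosomal and autophagy genes. Tfe3 (probe at chrX:7352259-7352318, mm9) lay at 3.31 (3.18 to 3.45) in CTRL fed and 3.40 (3.21 to 3.60) in AAKO fed samples. In fasted mice it lay at 3.11 (2.92 to 3.36) in CTRL and 3.64 (3.50 to 4.09) in AAKO, and after CL316243 at 3.49 (3.43 to 3.55) and 4.04 (3.91 to 4.25). The AAKO values were above all CTRL values in fasted and in CL316243 mice. The genotype difference was 0.59 ± 0.0928 (SE), adjusted p = 3.64e-06, when fasted, and 0.56 ± 0.0933 (SE), adjusted p = 3.19e-05, after CL316243, against 0.09 ± 0.0928 when fed. Tfeb was dimmer, at 0.17 (0.08 to 0.39) in CTRL fed and 0.22 (-0.12 to 0.35) in AAKO fed samples. It lay at 0.33 (0.13 to 0.54) and 0.44 (0.33 to 0.60) in fasted CTRL and AAKO, and at -0.09 (-0.20 to 0.03) and -0.08 (-0.56 to 0.08) after CL316243. No genotype difference in Tfeb was called in any condition (-0.06, 0.12 and -0.03). Tfeb was lower after CL316243 than in fed mice in each genotype (-0.30 ± 0.0884 in CTRL and -0.28 ± 0.0888 in AAKO, adjusted p = 0.013 and 0.0171), and higher when fasted than after CL316243 (0.43 and 0.58). With the mean of all 4 detected Tfeb probes the last difference in CTRL was -0.04 and not called, the CL316243 difference in CTRL was -0.18 and not called, and the fasted genotype difference was 0.23 and called. The CL316243 difference in AAKO was lost without AAKO fed replicate 3 (-0.24) or AAKO CL316243 replicate 1 (-0.20).

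Promoter windows of the members were searched for the motifs of factors tied to autophagy genes, because these letters place the CLEAR motif on named members. Each window runs from 250 bases before to 50 after a RefSeq start on GRCm38.p6, and 33 of the 40 members had 1 or more. The CLEAR motif TCACGTGA was in the windows of 2 members, Atg3 and Ctsd (6.06% of the 33). It was in those of 1.12% of all 27025 genes with a window, and in 0.974% of all 32851 windows. The shorter E-box CACGTG, which the CLEAR motif contains, was in the windows of 8 members (Atg14, Atg3, Atg5, Atg7, Bnip3, Ctsd, Ctsl and Lamp1). These were 24.2% of the 33, against 8.09% of all genes with a window and 7.15% of all windows. TGACGTCA, the CRE that CREB binds, was in the window of Atg5 (3.03% of the 33), of 2.03% of genes with a window and in 1.79% of all windows. GTAAACA, bound by FoxO factors, was in no member's window, in those of 4.05% of genes and in 3.65% of all windows. A repeat of AGGTCA in the same direction with 1 base between, bound by PPARs, was in no member's window. It was in those of 0.0481% of genes and in 0.0396% of all windows. Both strands were searched, and a match is a description of the letters only. The stretches below show the CLEAR motif (in capitals) of Atg3 (chr16:45158712-45158809, plus strand) and Ctsd (chr7:142387874-142387971, minus strand). They also show the CRE of Atg5 (chr10:44268293-44268345, plus strand), which begins 1 base before the start and ends 7 bases after it, and the 4 E-boxes of Lamp1 (chr8:13159055-13159160, plus strand), all within 61 bases of the start. The Atg5 stretch was chosen by rule, and the other 3 were chosen after the matches were seen. Lower-case cacgtg in the Atg3 and Atg5 stretches is a further E-box.
Atg3: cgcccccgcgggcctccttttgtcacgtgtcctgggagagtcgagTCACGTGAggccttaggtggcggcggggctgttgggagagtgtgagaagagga
Ctsd: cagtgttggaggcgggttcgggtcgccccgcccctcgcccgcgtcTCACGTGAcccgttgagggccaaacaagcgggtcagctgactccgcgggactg
Atg5: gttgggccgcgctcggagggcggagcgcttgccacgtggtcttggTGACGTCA
Lamp1: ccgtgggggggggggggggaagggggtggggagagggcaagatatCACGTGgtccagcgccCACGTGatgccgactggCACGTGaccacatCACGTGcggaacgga

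Atg3 and Ctsd, which hold the CLEAR motif in these windows, were among the members that differed least between genotypes when fasted (-0.04 and -0.01, neither called). After CL316243 the difference in Ctsd was called (-0.18, lost in 10 of 25 alternatives), and that in Atg3 was not. Any part of the motif in these values was not tested. Atg5 was lower in fasted AAKO livers, and Lamp1 was also lower, as described with their roles.

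The ULK1 complex starts autophagosome formation: ULK1 and ULK2 are its kinases, and ATG13 and ATG101 are subunits that bind and stabilise it. Ulk1 (chr5:111213514-111213573, mm9) and Atg13 were higher in fasted AAKO than in fasted CTRL livers, and Ulk2 and Atg101 were lower. Ulk1 lay at 4.72 (4.41 to 4.82) in CTRL fed, 4.83 (4.66 to 5.22) in AAKO fed, 4.96 (4.92 to 5.17) in CTRL fasted and 5.74 (5.56 to 5.85) in AAKO fasted samples. After CL316243 it lay at 6.16 (5.83 to 6.26) in CTRL and 5.95 (5.62 to 6.00) in AAKO, the highest medians of the 6 groups. The fasted genotypes did not overlap, and the CL316243 groups lay above both fed groups. The genotype difference when fasted was 0.71 ± 0.0909 (SE), adjusted p = 9.98e-08. Ulk1 rose with CL316243 over fed mice by 1.44 ± 0.0909 in CTRL (adjusted p = 4.03e-12) and by 1.02 ± 0.0913 in AAKO (adjusted p = 7.39e-10), and with fasting by 0.33 ± 0.0909 and 0.84 ± 0.0909 (adjusted p = 0.00319 and 1.26e-09). Within experiment 1, Ulk1 was lower in fasted than in CL316243 CTRL livers by 1.11 on the log2 scale (adjusted p = 6.23e-11), and in AAKO the same difference was -0.18 and not called.

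Atg13 lay at 4.43 (4.29 to 4.66) in CTRL fed and 4.30 (4.18 to 4.55) in AAKO fed samples. It lay at 4.18 (4.01 to 4.41) in CTRL fasted and 4.75 (4.62 to 4.88) in AAKO fasted, and at 4.56 (4.45 to 4.70) in CTRL and 5.25 (5.08 to 5.49) in AAKO after CL316243. The AAKO values were above all CTRL values when fasted and after CL316243, but not when fed. AAKO minus CTRL was 0.58 ± 0.0786 (SE), adjusted p = 2.83e-07, when fasted, and 0.70 ± 0.0790 (SE), adjusted p = 7.2e-08, after CL316243. Atg101 lay at 3.76 (3.43 to 4.14) in CTRL fasted and 3.47 (3.28 to 3.57) in AAKO fasted samples, and at 3.96 (3.64 to 4.17) and 3.37 (2.86 to 3.59) after CL316243, against 3.66 (3.36 to 3.99) and 3.56 (3.43 to 3.89) when fed. It was lower in AAKO after CL316243, where the groups did not overlap (-0.63 ± 0.123 (SE), adjusted p = 0.000254), and when fasted (-0.33 ± 0.122 (SE), adjusted p = 0.0234). The fasted call on Atg101 was lost without AAKO fasted replicate 6 (-0.30) or CTRL fasted replicate 6 (-0.27). Ulk2 lay at 2.55 (2.43 to 2.66) and 2.60 (2.52 to 2.79) in CTRL and AAKO fed samples and at 1.30 (1.15 to 1.49) and 1.02 (0.86 to 1.27) in CTRL and AAKO fasted samples. With CL316243 the values were 2.38 (2.11 to 2.62) and 2.27 (2.05 to 2.53). Every fasted value of Ulk2 lay below every fed and CL316243 value of the same genotype. It fell with fasting by 1.24 in CTRL (adjusted p = 8.54e-13) and by 1.58 in AAKO (adjusted p = 6.16e-16) on the log2 scale, opposite to Ulk1. The genotype difference of Ulk2 when fasted was small, at -0.26 ± 0.0870 (SE), adjusted p = 0.0141.

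**Figure D3:**
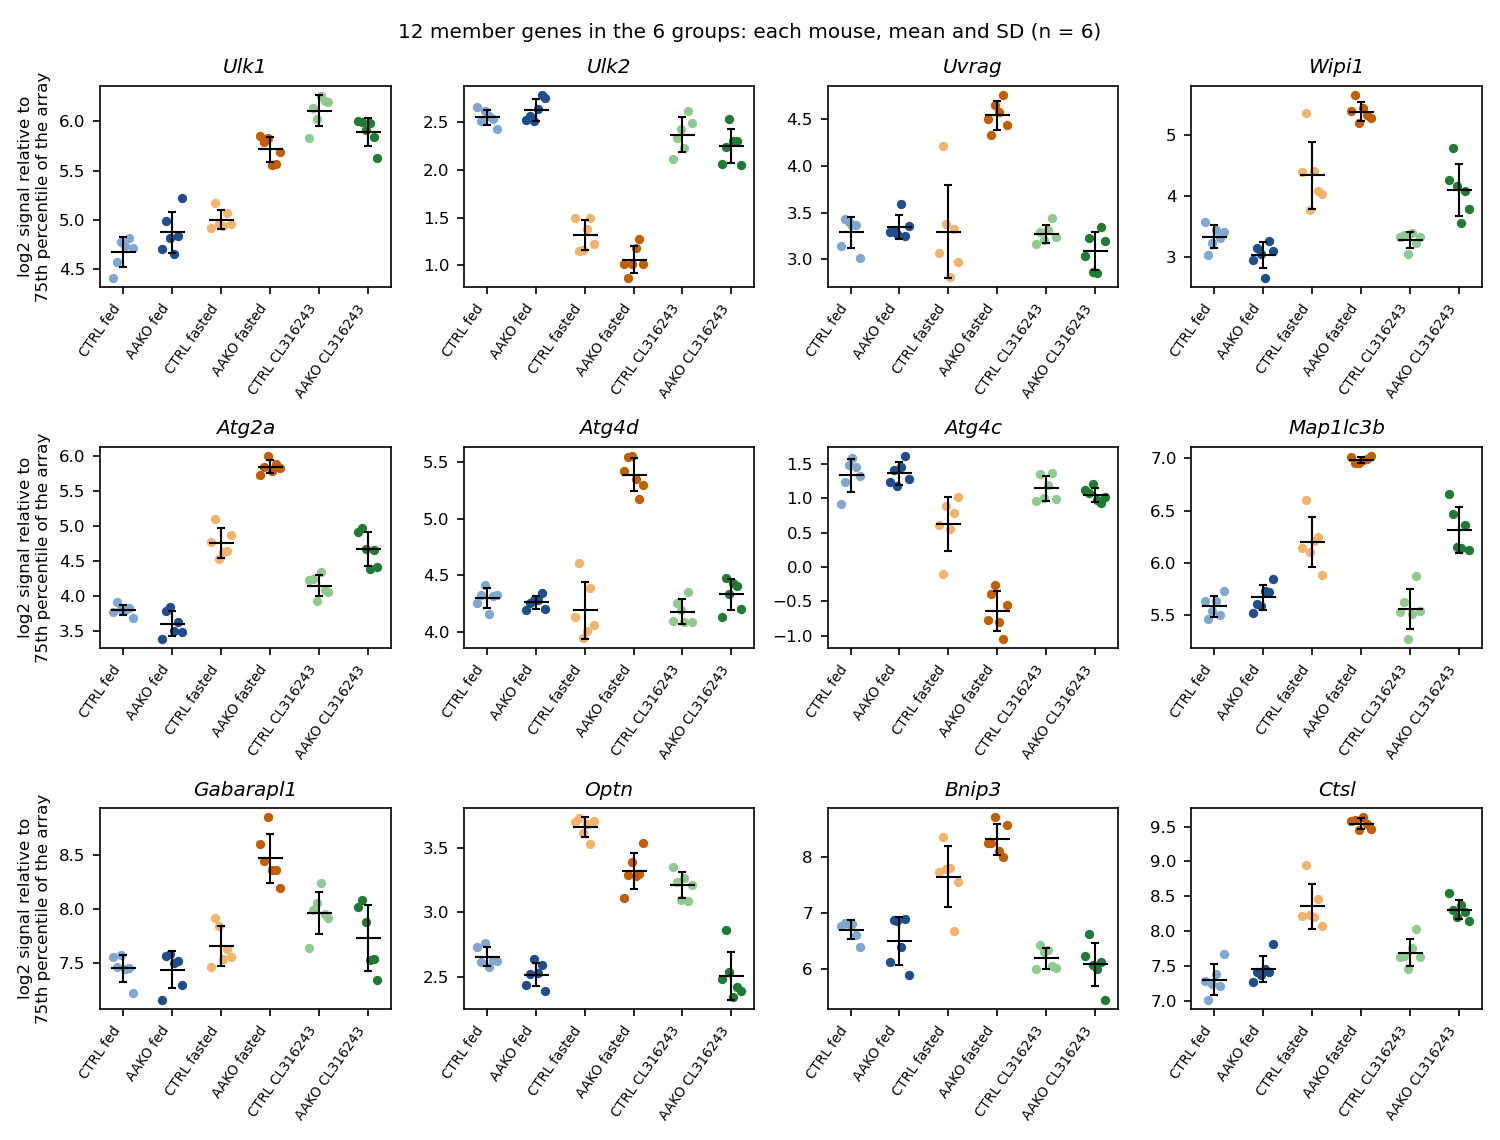
Log2 signal minus the array's 75th percentile (y axis) of 12 members in the 6 groups (x axis), with a point for each sample and the mean and SD (n = 6) in black. Ulk1 has its highest medians after CL316243 (6.16 in CTRL), Ulk2 its lowest when fasted (1.02 in AAKO), and the 6 fasted AAKO points of Ctsl and Atg4d lie above every point of the other groups.

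The lipid kinase PIK3C3 (VPS34), with BECN1 and either ATG14 or UVRAG, makes the phosphoinositide that marks the forming membrane. Uvrag was the only one of these 4 genes called between genotypes, and only in fasted mice. Uvrag (chr7:106035448-106035507, mm9) lay at 3.37 (3.02 to 3.44) in CTRL fed and 3.30 (3.25 to 3.59) in AAKO fed samples, and at 3.20 (2.82 to 4.21) in CTRL fasted and 4.54 (4.33 to 4.76) in AAKO fasted. In CL316243 mice it lay at 3.27 (3.17 to 3.44) and 3.12 (2.86 to 3.35). Fasted AAKO values were above all other samples, and the highest fasted CTRL value was that of replicate 2. The fasted genotype difference was 1.25 ± 0.140 (SE), adjusted p = 1.02e-08, against 1.44 without that replicate and 0.65 with the mean of its 3 detected probes. Fasting raised Uvrag in AAKO (1.19 ± 0.140, adjusted p = 7.43e-09), while its difference in CTRL was 0.01 ± 0.140, and the difference between these changes was 1.19 ± 0.199 (SE), adjusted p = 2.24e-05. The mean of the probes gave a change in AAKO of 0.55 and a difference between the changes of 0.63.

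Atg14 lay at 1.61 (1.48 to 1.92) and 1.83 (1.47 to 2.39) in CTRL and AAKO fed samples, at 1.5 (1.19 to 1.82) and 2.08 (0.92 to 2.75) when fasted, and at 2.31 (2.15 to 2.75) and 2.92 (2.47 to 3.02) after CL316243. The fasted AAKO samples spanned the widest range. Atg14 rose with CL316243 over fed mice in CTRL (0.73 ± 0.184, adjusted p = 0.00387) and in AAKO (1.01 ± 0.185, adjusted p = 7.95e-05), and no difference between genotypes or between fasted and fed mice was called. It was lower when fasted than after CL316243, by 0.87 in CTRL and 0.93 in AAKO on the log2 scale (adjusted p = 3e-04 and 5.75e-05). Pik3c3 was dim, at -0.84 (-1.16 to -0.66) and -1.06 (-2.77 to -0.66) in CTRL and AAKO fed samples, -0.51 (-0.69 to -0.40) and -0.55 (-0.70 to -0.48) when fasted, and -0.53 (-0.75 to -0.16) and -0.57 (-0.92 to -0.28) after CL316243. Replicate 5 of the AAKO fed group lay far below the rest of its group. The Pik3c3 differences from AAKO fed mice were called (0.72 with fasting and 0.71 with CL316243), and without that replicate they were 0.42 and 0.40. The largest called difference in Becn1 was -0.32 ± 0.112, with fasting in AAKO (adjusted p = 0.0141), which was lost without AAKO fed replicate 3 (-0.24).

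ATG2 proteins carry lipids into the growing membrane, and WIPI proteins bind its phosphoinositide and recruit them. Atg2a and Wipi1 were higher in AAKO livers when fasted and after CL316243, and both rose with fasting in each genotype. Atg2a (chr19:6262231-6262290, mm9) lay at 3.81 (3.69 to 3.92) in CTRL fed and 3.57 (3.39 to 3.85) in AAKO fed samples, and at 4.71 (4.53 to 5.10) in CTRL fasted and 5.84 (5.73 to 6.00) in AAKO fasted. After CL316243 it lay at 4.16 (3.93 to 4.35) in CTRL and 4.67 (4.39 to 4.98) in AAKO. The genotypes did not overlap in fasted or CL316243 mice. The genotypes differed by 1.08 ± 0.0976 (SE), adjusted p = 1.29e-10, when fasted, and 0.51 ± 0.0981 (SE), adjusted p = 0.000214, after CL316243. Fasting raised Atg2a by 0.95 ± 0.0976 in CTRL and by 2.24 ± 0.0976 in AAKO (adjusted p = 2.02e-09 and 7.4e-18), and the changes differed by 1.28 ± 0.138 (adjusted p = 2.79e-08).

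Wipi1 lay at 3.37 (3.03 to 3.58) and 3.08 (2.66 to 3.27) in CTRL and AAKO fed samples and at 4.24 (3.77 to 5.35) and 5.35 (5.20 to 5.65) in CTRL and AAKO fasted samples. With CL316243 the values were 3.33 (3.05 to 3.39) in CTRL and 4.12 (3.55 to 4.78) in AAKO, with no overlap. The highest fasted CTRL value was again replicate 2, inside the fasted AAKO range. The genotype difference was 1.04 ± 0.179 (SE), adjusted p = 1.31e-05, when fasted (1.24 without that replicate), and 0.83 ± 0.179 (SE), adjusted p = 0.000743, after CL316243. Wipi1 rose with CL316243 in AAKO (1.09 ± 0.179, adjusted p = 2.01e-05), while the difference in CTRL was -0.05 ± 0.179, and these changes differed by 1.14 ± 0.253 (adjusted p = 0.00266). Atg2b, the dimmest member, lay at -0.82 (-1.02 to -0.69) and -0.87 (-1.21 to -0.76) when fed, -0.71 (-0.90 to -0.40) in CTRL fasted, -1.43 (-1.60 to -1.18) in AAKO fasted, and -0.83 (-1.01 to -0.55) and -0.65 (-0.95 to -0.60) after CL316243. Its fasted AAKO values were below all fasted CTRL values (-0.74 ± 0.0862 (SE), adjusted p = 1.8e-08), but its other probes read 0.27 and 0.32, in the opposite direction. Wipi2 differed by -0.27 when fasted and by 0.26 after CL316243, both called, and its probes also disagreed when fasted (0.34 and -0.34 for the others).

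Small proteins of the ATG8 family are attached to the membrane by a system like that of ubiquitin: ATG7 is the activating enzyme, ATG3 and ATG10 the conjugating enzymes, and ATG12, ATG5 and ATG16L1 form the complex that directs the attachment. Of the 6 genes, Atg16l1 was higher and Atg5 and Atg10 lower in fasted AAKO livers. Atg5 lay at 3.92 (3.76 to 3.99) and 3.75 (3.63 to 3.91) in CTRL and AAKO fed samples, 4.23 (4.01 to 4.30) in CTRL fasted and 3.58 (3.28 to 3.62) in AAKO fasted, and 3.95 (3.68 to 4.13) and 3.89 (3.72 to 3.97) after CL316243. Its fasted values were the highest group in CTRL and the lowest in AAKO. The genotype difference when fasted was -0.65 ± 0.0703 (SE), adjusted p = 4.82e-09. Atg5 rose with fasting in CTRL (0.29 ± 0.0703, adjusted p = 0.001) and fell in AAKO by 0.21 on the log2 scale (adjusted p = 0.0085). The fall in AAKO was not called with quantile normalization (-0.14) or with the authors' value table (-0.13). The changes with fasting differed between genotypes by -0.51 ± 0.0995 (adjusted p = 0.00017).

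Atg16l1 lay at 3.60 (3.50 to 3.73) and 3.58 (3.51 to 3.72) in CTRL and AAKO fed samples, 4.16 (4.07 to 4.34) in CTRL fasted, 4.77 (4.55 to 5.15) in AAKO fasted, and 3.68 (3.48 to 3.79) and 3.97 (3.66 to 4.20) after CL316243. It rose with fasting in each genotype (0.60 ± 0.0857 and 1.21 ± 0.0857, adjusted p = 8.88e-07 and 1.38e-13), by 0.39 and 0.45 with the mean of its probes, and the fasted genotypes did not overlap (0.61 ± 0.0857 (SE), adjusted p = 4.72e-07). Its other probes read -0.31 and 0.15 for that difference. Atg10 differed when fasted by -0.21 ± 0.0885 (adjusted p = 0.0449), a call lost when any of 6 arrays was left out (AAKO fasted replicates 3, 4 and 5 and CTRL fasted replicates 2, 3 and 4), with values from -0.21 to -0.15. Atg7 and Atg12 were higher and Atg3 was lower in fasted than in fed AAKO livers, by 0.49, 0.39 and -0.31. The other Atg7 probe read -0.52 for the same difference. In CTRL livers the fasting differences of Atg7 (0.44) and Atg3 (-0.25) were also called, and that of Atg12 was not. That of Atg7 in CTRL fell as low as 0.02 among the alternatives.

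ATG4 proteases trim new ATG8 proteins and later cut them from the membrane. Their genes moved in opposite directions in fasted AAKO livers: Atg4d was higher, and Atg4c, Atg4a and Atg4b were lower. Atg4c (chr4:98926364-98926423, mm9) lay at 1.40 (0.91 to 1.59) in CTRL fed and 1.35 (1.18 to 1.62) in AAKO fed samples, and at 0.70 (-0.10 to 1.02) in CTRL fasted and -0.66 (-1.05 to -0.26) in AAKO fasted. In CL316243 mice it lay at 1.1 (0.97 to 1.37) and 1.05 (0.93 to 1.22). Every fasted AAKO value was below every other sample, and the lowest fasted CTRL value was that of replicate 2. The genotype difference when fasted was -1.27 ± 0.118 (SE), adjusted p = 2.55e-10, and the other Atg4c probes read -0.30 and -0.25. Atg4c fell with fasting by 0.71 in CTRL (adjusted p = 9.61e-06) and by 2.00 in AAKO (adjusted p = 2.35e-15) on the log2 scale. With the mean of its probes these changes were -0.23, which was not called, and -1.03.

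Atg4d (chr9:21078130-21078189, mm9), read by 1 probe, lay at 4.32 (4.16 to 4.42) in CTRL fed and 4.27 (4.19 to 4.34) in AAKO fed samples, and at 4.09 (3.95 to 4.61) in CTRL fasted and 5.39 (5.17 to 5.56) in AAKO fasted. After CL316243 it lay at 4.14 (4.08 to 4.35) and 4.37 (4.13 to 4.48). Fasted AAKO samples were above all others, which overlapped. AAKO minus CTRL was 1.2 ± 0.0881 (SE), adjusted p = 1.93e-12, when fasted, and the fasting change was 1.13 ± 0.0881 in AAKO and -0.11 ± 0.0881 in CTRL, a difference of 1.24 ± 0.125 (adjusted p = 9.26e-09). Atg4a lay at 0.71 (0.54 to 0.82) and 0.72 (0.39 to 0.90) when fed, at 0.25 (-0.16 to 0.41) in CTRL fasted and -0.37 (-0.61 to -0.16) in AAKO fasted, and at 0.46 (0.20 to 0.73) and 0.42 (0.23 to 0.56) after CL316243. The fasted AAKO values lay below the fasted CTRL ones (-0.61 ± 0.0962 (SE), adjusted p = 3.61e-06). Atg4b lay at 2.19 (2.02 to 2.33) and 2.23 (2.07 to 2.37) when fed, at 1.64 (1.56 to 1.78) in CTRL fasted and 1.38 (1.24 to 1.72) in AAKO fasted, and at 2.12 (2.04 to 2.31) and 2.07 (1.91 to 2.26) after CL316243. Its fasted genotype difference was small (-0.24 ± 0.0808 (SE), adjusted p = 0.0159), was lost without AAKO fasted replicate 4 or 5 (-0.20 and -0.20), and was 0.02 with the mean of its probes.

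The ATG8 family itself, LC3 and the GABARAP proteins, coats the autophagosome and binds cargo receptors. In fasted AAKO livers Map1lc3b and Gabarapl1 were higher, and Map1lc3a, Gabarapl2 and Gabarap were lower. Cross-hybridisation between these close relatives was not tested. Map1lc3b (chr8:124120787-124120846, mm9) lay at 5.59 (5.47 to 5.73) in CTRL fed and 5.66 (5.52 to 5.85) in AAKO fed samples, and at 6.18 (5.89 to 6.61) in CTRL fasted and 6.99 (6.95 to 7.02) in AAKO fasted. With CL316243 the values were 5.54 (5.27 to 5.87) in CTRL and 6.26 (6.12 to 6.66) in AAKO. The genotypes were separated when fasted and after CL316243, and the fasted AAKO samples lay closest together. The genotypes differed by 0.79 ± 0.0983 (SE), adjusted p = 6.73e-08, when fasted, and 0.75 ± 0.0988 (SE), adjusted p = 9.68e-07, after CL316243. In CTRL mice Map1lc3b rose with fasting (0.62 ± 0.0983, adjusted p = 5.06e-06), and its difference with CL316243 was -0.02 ± 0.0983. In AAKO mice it rose with both (1.32 ± 0.0983 and 0.64 ± 0.0988, adjusted p = 4.21e-13 and 7.06e-06).

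Gabarapl1 (chr6:129492254-129492313, mm9) lay at 7.46 (7.22 to 7.57) in CTRL fed and 7.51 (7.15 to 7.58) in AAKO fed samples, and at 7.59 (7.46 to 7.92) in CTRL fasted and 8.40 (8.20 to 8.85) in AAKO fasted. In CL316243 mice it lay at 7.97 (7.64 to 8.24) in CTRL and 7.70 (7.34 to 8.09) in AAKO. Its genotype difference was 0.82 ± 0.118 (SE), adjusted p = 8.82e-07, when fasted, without overlap, and -0.25 ± 0.119 after CL316243, which was not called. These genotype differences differed by 1.07 ± 0.167 (SE), adjusted p = 1.1e-05. With CL316243 over fed mice Gabarapl1 rose in CTRL (0.51 ± 0.118, adjusted p = 0.0017), and in AAKO the difference was 0.28 ± 0.119. The lower members differed when fasted by -0.42 ± 0.101 (Map1lc3a), -0.34 ± 0.0684 (Gabarapl2) and -0.22 ± 0.0568 (Gabarap), each under 1.5-fold.

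Cargo receptors bind ubiquitin on what is to be degraded. Sqstm1, which encodes p62, and Optn, which encodes optineurin, rose with fasting in each genotype, and Nbr1 did not. Sqstm1 lay at 6.23 (6.12 to 6.53) and 6.29 (6.22 to 6.49) in CTRL and AAKO fed samples, 6.94 (6.72 to 7.29) in CTRL fasted, 7.38 (7.29 to 7.69) in AAKO fasted, and 6.79 (6.66 to 6.95) and 6.83 (6.69 to 7.02) after CL316243. All fasted and CL316243 values were above the fed values of the same genotype. Fasting raised it by 0.70 ± 0.0831 in CTRL and 1.1 ± 0.0831 in AAKO (adjusted p = 3.09e-08 and 4.85e-13), and CL316243 by 0.54 ± 0.0831 and 0.51 ± 0.0835 (adjusted p = 1.68e-05 and 1.99e-05). The genotypes differed when fasted (0.46 ± 0.0831 (SE), adjusted p = 2.56e-05).

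Optn lay at 2.62 (2.57 to 2.76) in CTRL fed and 2.52 (2.39 to 2.64) in AAKO fed samples, 3.70 (3.53 to 3.73) in CTRL fasted and 3.30 (3.11 to 3.54) in AAKO fasted, and 3.23 (3.09 to 3.35) in CTRL and 2.45 (2.34 to 2.86) in AAKO after CL316243. Fasted values were above fed values in each genotype, while after CL316243 only CTRL lay above its fed group. Fasting raised Optn by 1.01 ± 0.0723 in CTRL and 0.80 ± 0.0723 in AAKO (adjusted p = 1.12e-12 and 2.56e-11). With CL316243 it rose in CTRL (0.55 ± 0.0723, adjusted p = 1.43e-06), its difference in AAKO was -0.02 ± 0.0726, and these changes differed by -0.57 ± 0.102 (adjusted p = 0.000264). It was lower in AAKO after CL316243, without overlap (-0.71 ± 0.0726 (SE), adjusted p = 1.36e-08), and when fasted (-0.35 ± 0.0723 (SE), adjusted p = 0.000173). The latter was -0.19 and not called with the mean of its probes. Nbr1 differed from fed mice after CL316243 only, by 0.28 ± 0.0992 in CTRL and 0.54 ± 0.0996 in AAKO (adjusted p = 0.0376 and 9.24e-05), and the first was lost without any of CTRL CL316243 replicates 1, 4 and 5 and CTRL fed replicates 2 to 6 (0.21 to 0.29).

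BNIP3 and BNIP3L sit on mitochondria and recruit ATG8 proteins to them. Both genes rose with fasting in each genotype and were higher in fasted AAKO than in fasted CTRL livers. Bnip3 (chr7:146082760-146082819, mm9) lay at 6.78 (6.40 to 6.82) and 6.62 (5.89 to 6.89) in CTRL and AAKO fed samples, 7.75 (6.69 to 8.35) in CTRL fasted and 8.25 (8.0 to 8.71) in AAKO fasted, and 6.18 (5.99 to 6.43) and 6.10 (5.45 to 6.63) after CL316243. The fasted genotypes overlapped, and the fasted CTRL values spread most widely of the 6 groups. Fasting raised Bnip3 by 0.95 ± 0.202 in CTRL and by 1.81 ± 0.202 in AAKO (adjusted p = 0.000251 and 2.5e-09), and the genotype difference when fasted was 0.66 ± 0.202 (SE), adjusted p = 0.00683. Over the alternatives that genotype difference ran from 0.15 to 1.17, and its call was lost in 1 of 25. These ends were the 2 wash batches taken singly, with 1.17 in batch 1 and 0.15 in batch 2. Fits that left out 1 sample gave 0.45 to 0.82. Bnip3 was higher when fasted than after CL316243 by 1.46 ± 0.202 in CTRL and 2.25 ± 0.203 in AAKO, a comparison within experiment 1 (adjusted p = 8.37e-07 and 4.03e-11). Bnip3l lay at 4.69 (4.48 to 4.78) and 4.57 (4.36 to 4.76) when fed, 5.29 (5.01 to 5.88) in CTRL fasted, 5.68 (5.59 to 5.82) in AAKO fasted, and 4.56 (4.45 to 4.72) and 4.71 (4.45 to 5.03) after CL316243. It rose with fasting by 0.69 ± 0.101 and 1.14 ± 0.101 (adjusted p = 1.09e-06 and 1.61e-11), with a genotype difference when fasted of 0.35 ± 0.101 (SE), adjusted p = 0.00425. The genotype difference of Bnip3l ran from 0.08 to 0.62 over the alternatives, and its call was also lost in 1 of 25. Again batch 1 alone gave the higher end and batch 2 alone the lower, and leaving out 1 sample gave 0.28 to 0.47.

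**Figure D4:**
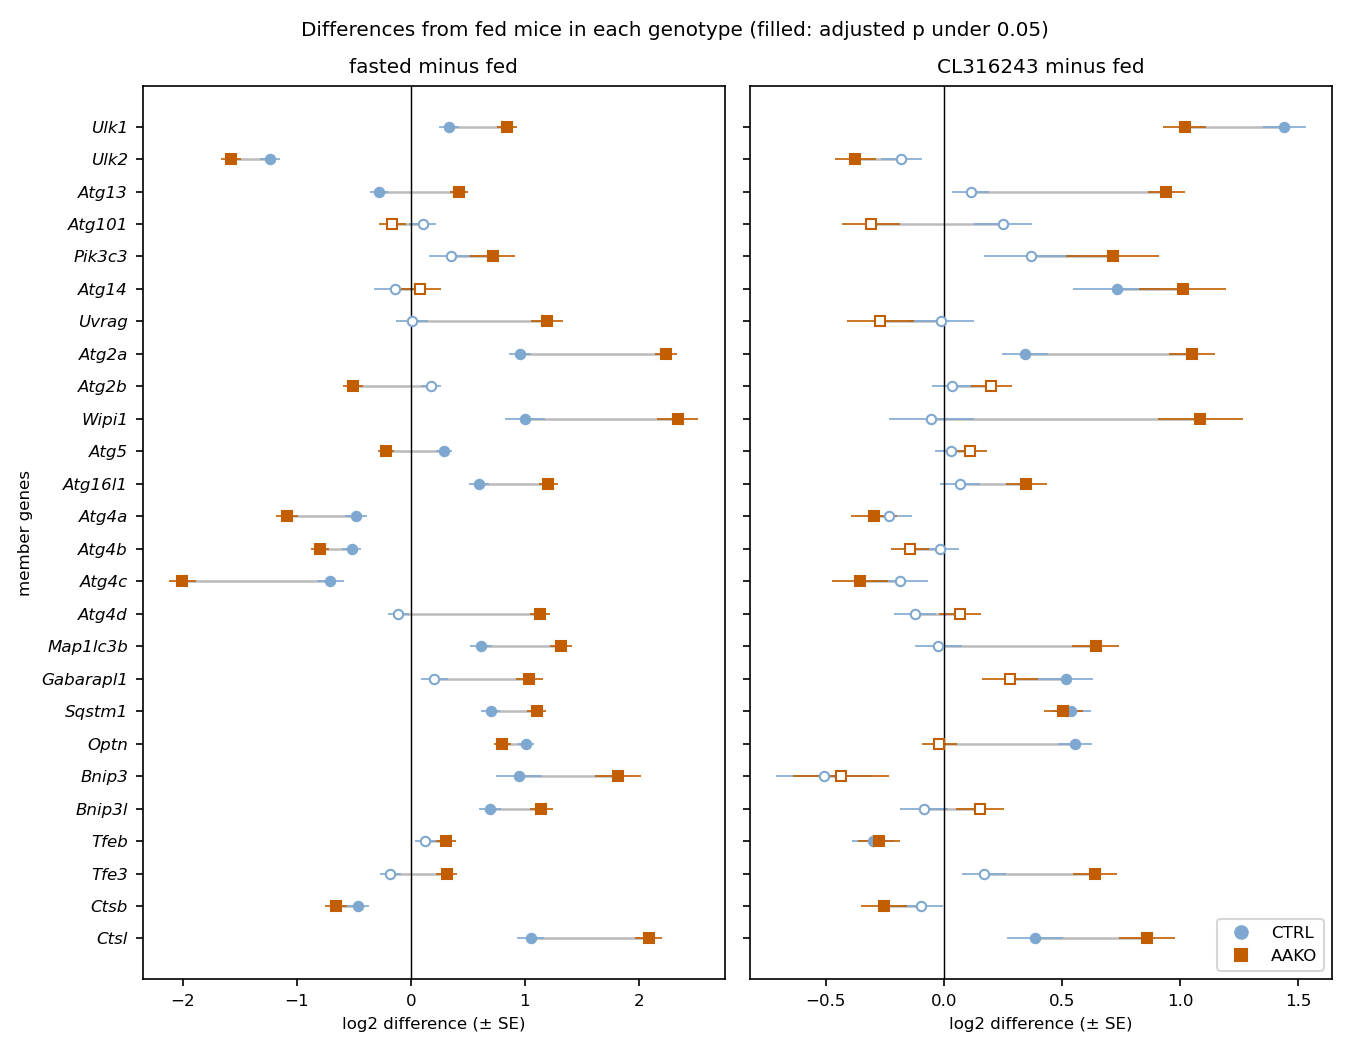
Difference from fed mice in log2 signal (x axis, with the standard error) of the 26 members called at 1.5-fold or more in any comparison (y axis), for fasting and for CL316243, in CTRL (circles) and AAKO (squares), filled where called. With fasting Atg2a and Wipi1 lie further from 0 in AAKO (2.24 and 2.34) than in CTRL (0.95 and 1.00), and with CL316243 Ulk1 has the largest value in CTRL, 1.44.

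At the lysosome, LAMP1 and LAMP2 are membrane glycoproteins and the cathepsins B, D and L are proteases of its lumen. The cathepsin genes diverged: Ctsl was higher in AAKO livers when fasted and after CL316243, Ctsb fell with fasting, and Ctsd was called in 2 comparisons only. Ctsl (chr13:64465287-64465346, mm9), the brightest member, lay at 7.27 (7.01 to 7.67) in CTRL fed and 7.41 (7.27 to 7.81) in AAKO fed samples, and at 8.22 (8.07 to 8.95) in CTRL fasted and 9.56 (9.45 to 9.63) in AAKO fasted. After CL316243 it lay at 7.64 (7.45 to 8.03) and 8.29 (8.15 to 8.54). Fasted AAKO samples lay above every other sample, and the genotypes were also separated after CL316243. The genotype difference was 1.19 ± 0.118 (SE), adjusted p = 8.52e-10, when fasted, and 0.63 ± 0.118 (SE), adjusted p = 0.000161, after CL316243, and the other Ctsl probe read 2.38 when fasted. Fasting raised Ctsl by 1.05 ± 0.118 in CTRL and 2.08 ± 0.118 in AAKO (adjusted p = 1.11e-08 and 9.22e-16). Cathepsin L is also made by macrophages, whose markers are given above.

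Ctsb lay at 7.23 (7.21 to 7.36) and 7.35 (7.20 to 7.54) in CTRL and AAKO fed samples, 6.75 (6.56 to 7.15) and 6.76 (6.33 to 6.99) in CTRL and AAKO fasted samples, and 7.14 (6.93 to 7.51) and 7.12 (7.02 to 7.16) after CL316243. The fasted values were below the fed ones in each genotype, and no genotype difference was called. Ctsb fell with fasting by 0.46 in CTRL and 0.66 in AAKO on the log2 scale (adjusted p = 0.000207 and 5.54e-07). Ctsd was called for fasting against CL316243 in AAKO, 0.18 ± 0.0624 (adjusted p = 0.0143, and 0.36 with the authors' value table), and for the genotype difference after CL316243, -0.18 ± 0.0624 (adjusted p = 0.0329). The latter was lost without any of AAKO CL316243 replicates 3, 4 and 5 and CTRL CL316243 replicates 1 and 6 (-0.18 to -0.14). Lamp1 was lower in fasted AAKO livers by 0.27 on the log2 scale (adjusted p = 0.00017), without overlap, and its other probe read -0.31. The same difference was -0.27 ± 0.0681 for Lamp2 (adjusted p = 0.00136), whose other probes read -0.70 and 0.42. Depdc5, a subunit of the GATOR1 complex that restrains mTORC1 when amino acids are scarce, fell with fasting by 0.41 in CTRL and 0.27 in AAKO on the log2 scale (adjusted p = 6e-05 and 0.00299), and the latter was -0.13 and not called with the authors' value table. Its genotype difference when fasted, 0.22 ± 0.0776, was called at an adjusted p of 0.021 and was lost without any of AAKO fasted replicates 3 and 4 and CTRL fasted replicates 3 and 6 (0.18 to 0.19).

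Because each gene was read by its brightest probe, the other probes of the same gene were set beside it. Of the 40 members, 25 had 1 or more further detected probes, 41 in all. Among the 22 members with such probes that were called between genotypes when fasted, all probes pointed the same way for 16 and some probe pointed the other way for 6 (Atg2b, Wipi2, Atg16l1, Atg4b, Lamp2 and Depdc5). After CL316243 all probes pointed the same way for the 8 members with further probes that were called. With the mean of all detected probes, the fasted genotype difference was 0.65 for Uvrag and -0.61 for Atg4c, smaller than with the brightest probe, and 1.79 for Ctsl, larger. It was -0.05 for Atg2b and 0.15 for Atg16l1, and neither was called. For Ulk1, Atg13, Map1lc3b, Gabarapl1, Wipi1 and Sqstm1 every probe was higher in AAKO. Probes of a gene can lie in different transcripts, and the files do not say which exon or UTR a probe lies in.

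**Figure D5:**
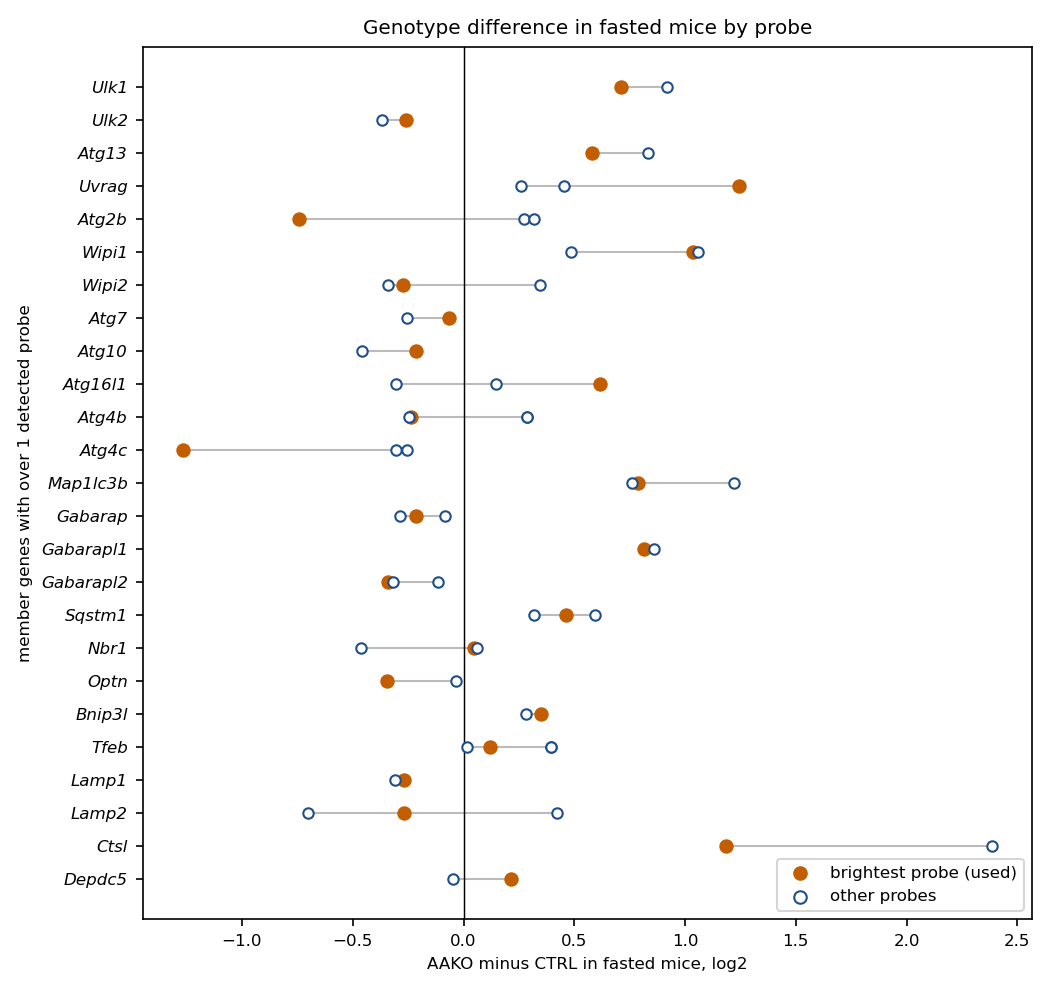
AAKO minus CTRL difference in log2 signal in fasted mice (x axis) for every detected probe of the 25 members with more than 1 (y axis), with the brightest probe filled and the others open. The probes of Gabarapl1 lie together (0.82 and 0.86), those of Atg2b lie on both sides of 0, and the brightest Uvrag and Atg4c probes lie furthest from 0 of their genes.

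Other genes of the pathway were read from 5 lists: other autophagy machinery, lysosomal hydrolases, lysosomal membrane proteins, the vacuolar ATPase that acidifies the lysosome, and mTORC1, AMPK and GATOR signalling. Of their 169 genes 163 were tested. Between fasted genotypes 61.3% of them were called (49.2% of all genes), 59 higher and 41 lower in AAKO, where 22.0% of all genes were higher and 27.2% lower. Of 17 vacuolar ATPase genes 12 were higher and 1 lower (76.5% called), with a median of 0.23. Of 41 hydrolase genes 7 were higher and 13 lower, with a median of -0.05, and the share called, 48.8%, was near that of all genes. The median of all genes tested was -0.03. Other autophagy machinery had 17 higher and 7 lower of 36, signalling 15 higher and 12 lower of 43, and lysosomal membrane 8 and 8 of 26. After CL316243 the 5 lists held 27 higher and 26 lower (32.5% called, against 24.5% of all genes), and between fed genotypes none. With fasting in CTRL mice 57.7% were called (43.8% of all genes), 34 higher and 60 lower, and over all genes too the lower calls outnumbered the higher ones (24.0% and 19.8%).

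The highest differences of these lists between fasted genotypes were in Ddit4, a stress-induced inhibitor of mTORC1, Sesn1, a sestrin that inhibits mTORC1, and Retreg1, a receptor for autophagy of the endoplasmic reticulum. Ddit4 had a mean of 8.74 ± 0.0666 in AAKO fasted and 4.33 ± 1.72 in CTRL fasted samples (SD, n = 6), a difference of 4.42 ± 0.473 (SE, adjusted p = 3.83e-09). Sesn1 differed by 3.70 ± 0.283 (adjusted p = 4.7e-12) and Retreg1 by 2.92 ± 0.280 (adjusted p = 4.28e-10). The lowest were Igf2r, a receptor that carries hydrolases to the lysosome, at -1.87 ± 0.130, Ddit4l at -1.65 ± 0.304 and Trp53inp2 at -1.59 ± 0.130 (adjusted p = 6.21e-13, 3.52e-05 and 1.91e-11). Ddit4l was dim, with means of -3.30 in fasted CTRL and -4.94 in fasted AAKO. It was well above background on 5 of 6 fasted AAKO arrays, so signal limits this difference. With fasting in CTRL the highest were Atg16l2, a relative of Atg16l1, at 1.96 ± 0.202, Retreg1 at 1.96 ± 0.280 and Mios, a GATOR2 subunit, at 1.08 ± 0.0944 (adjusted p = 2.32e-09, 8.31e-07 and 8.58e-11). The lowest were Atg9b at -1.78 ± 0.255, Tmem41b at -1.16 ± 0.0960 and Gm2a at -0.91 ± 0.122 (adjusted p = 8.36e-07, 2.72e-11 and 2.91e-07). Atg9b was dim too, with means of -2.28 in CTRL fed and -4.07 in CTRL fasted samples. Ddit4 and Sesn1 spread widely over the fasted CTRL samples, with an SD of 1.72 for Ddit4 there and 0.0666 in fasted AAKO.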

How the data were processed

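Liver RNA (200 ng per sample, labelled with Cy3) was hybridised to 36 1-colour Agilent arrays, 6 per group. Per the file headers, the deposited intensity is the processed signal of Agilent Feature Extraction 10.10.1.1, already background-subtracted, with probe positions on mm9. The authors' value table, deposited as log2 values with normalization not given in the sources used here, was used as an alternative. It holds the same sorted values on every array of a group.

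Outlier spots (0.127%) were left out and spots of a probe averaged. The log2 intensity minus the log2 75th percentile of each array's 56605 probes other than controls was computed. The brightest probe stood for a gene. Genes were tested if well above background on 5 of 6 arrays of any group. limma 3.58.1 (R 4.3.3) fitted 6 group means and the wash batch to all arrays, two-sided. Arrays were washed in 2 batches that each held every group. The script was tested on simulated data. No probe was saturated, and the number of arrays limits the precision.

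The members and lists were chosen with earlier results of these data known. Members called at 1.5-fold or more in any of 12 comparisons (26) are given in every group; of the other pathway genes, the 3 highest and 3 lowest called in 2 comparisons are named. Alternatives changed the background correction, scaling, filter, batch terms, probe choice and samples. RefSeq accessions gave 32994 probes a symbol (GRCm38.p6). Promoter letters were printed by rule for members called at 1.5-fold between genotypes with a motif other than the bare E-box.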

Additional observations from a re-analysis of the deposited data

Results flagged for a closer look

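In 9 of 156 groups of 6 samples, 1 sample lay apart from the others by Dixon's criterion, which chance gives for about 1 in 20 groups. These were Gabarapl1 in CTRL fed replicate 6 (7.22, low), Sqstm1 in CTRL fed replicate 1 (6.53, high), Ctsb in CTRL fed replicate 6 (7.36, high) and Pik3c3 in AAKO fed replicate 5 (-2.77, low). The others were Uvrag in AAKO fed replicate 4 (3.59, high), Ctsl in AAKO fed replicate 6 (7.81, high), Atg4a in CTRL fasted replicate 2 (-0.16, low), Atg5 in AAKO fasted replicate 5 (3.28, low) and Atg2b in AAKO CL316243 replicate 2 (-0.95, low).

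The change from fed to fasted differed between genotypes (AAKO minus CTRL, limma, adjusted p under 0.05) for 19 of the 26 members given in full. It was more positive in AAKO for Wipi1 (1.34), Atg2a (1.28), Atg4d (1.24), Uvrag (1.19), Ctsl (1.03), Bnip3 (0.86), Gabarapl1 (0.83), Atg13 (0.70), Map1lc3b (0.70), Atg16l1 (0.61), Ulk1 (0.51), Tfe3 (0.50), Bnip3l (0.45) and Sqstm1 (0.40). It was more negative for Atg4c (-1.30), Atg2b (-0.69), Atg4a (-0.60), Atg5 (-0.51) and Ulk2 (-0.34), the last being lost without any of 7 single arrays (-0.32 to -0.30). With the mean of all detected probes those of Atg2b (-0.04) and Atg16l1 (0.06) were lost, and those of Uvrag (0.63) and Atg4c (-0.80) were smaller.

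The change from fed to CL316243 differed for 8. It was more positive in AAKO for Wipi1 (1.14), Atg13 (0.83), Atg2a (0.70), Map1lc3b (0.67) and Tfe3 (0.47), and more negative for Optn (-0.57), Atg101 (-0.56) and Ulk1 (-0.42). Those of Atg101 (-0.55 to -0.46) and Ulk1 (-0.41 to -0.35) were each lost without any of 9 single arrays, and that of Atg13 (0.36) with the mean of its probes.

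The genotype difference was more positive in fasted than in CL316243 mice for 10 members: Uvrag (1.45), Gabarapl1 (1.07), Atg4d (1.05), Ulk1 (0.93), Bnip3 (0.79), Atg2a (0.58), Ctsl (0.56), Sqstm1 (0.44), Optn (0.37) and Atg16l1 (0.32). It was more negative for Atg4c (-1.13), Atg2b (-0.85), Atg5 (-0.59) and Atg4a (-0.54). That of Bnip3 was lost without any of 8 single arrays (0.59 to 0.77) and that of Atg16l1 without any of 14 (0.26 to 0.32). That of Atg2b was lost (-0.25) and that of Atg16l1 was -0.0573 with the mean of the probes. These comparisons share groups.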

How the results depend on the processing

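Of 242 called differences of members, 104 kept their direction and call in every alternative and 216 in every fit that left out 1 sample. Leaving out samples gave 27 to 30 calls for the genotype difference in fasted mice and 10 to 13 after CL316243. The counts were 24 to 26 for fasting in CTRL, 34 to 34 in AAKO, 9 to 11 and 17 to 20 for CL316243 in CTRL and AAKO, and 23 to 26 and 33 to 37 for fasting against CL316243. The genotype interactions gave 21 to 26 (fasting), 7 to 9 (CL316243) and 16 to 20 (fasted against CL316243), and fed genotypes 0 throughout. Within single wash batches, with 3 samples per group in most, counts fell. In batch 1 they were 14 for fasting in CTRL, 4 for CL316243 in CTRL, 14 for fasting against CL316243 in CTRL and 0 for the genotype interaction with CL316243. In batch 2 they were 4 for the genotype difference after CL316243, 4 and 7 for CL316243 in CTRL and AAKO, and 9, 2 and 8 for the interactions in the order above. The fasted genotype difference kept 22 calls in each batch. With the mean of all detected probes 35 calls were lost and 11 reversed, in which the probes of a gene disagree: Atg13 (0.0352 for fasting in CTRL, 0.083 for fasting against CL316243 in AAKO), Atg2b (0.25, fasting in AAKO), Atg4b (0.0228, fasted genotype difference), Atg16l1 (-0.0573, genotype difference fasted against CL316243), Atg7 (-0.0134 for fasting in AAKO, -0.0442 and -0.0826 for fasting against CL316243 in CTRL and AAKO), Lamp2 (0.0764 for fasting and 0.13 for fasting against CL316243, in AAKO) and Tfeb (-0.0398, fasting against CL316243 in CTRL). The authors' value table moved the median of all genes from -0.10 to 0.01 for fasting in AAKO and from -0.08 to 0.05 for fasting against CL316243 in AAKO. With it, calls were 8 higher and 5 lower for the genotype difference after CL316243, and 14 and 10 for fasting against CL316243 in CTRL. Same-numbered samples were not alike on average: the correlation of their deviations averaged -0.00106 over 90 pairs (-0.304 to 0.359), against 0.000195 for other pairs. Of the 90 pairs 16 were above 0.1, and 4 of 36 arrays lay closest to their own number. An average over all groups cannot exclude pairs between some of them. With the replicate block, the genotype difference had 30 calls in fasted mice and 11 after CL316243, and 3 calls were lost in all (Atg3, CL316243 in AAKO; Becn1, CL316243 in CTRL; Gabarap, genotype after CL316243). Signal limits Atg2b and Pik3c3 most, the dimmest members.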
